A study of Mus musculus with 2 samples.

Results

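The genes described here make and control the MHC class II pathway of antigen presentation, and their expression was compared in stromal cells of the fetal mouse thymus between reaggregation thymus organ culture (RTOC) and 2D culture on a flat dish. The 9 genes are H2-Aa, H2-Ab1, H2-Eb1, H2-DMa, H2-DMb1, H2-Oa, H2-Ob, Cd74 and Ciita, out of 19505 genes named on the array. They were chosen by name, and every non-control probe whose gene name or accession gave one of them was taken, which found 14 probes in 23 spots on each array. Ciita appears on the array under its older name C2ta.

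MHC class II molecules are heterodimers of an α and a β chain that display peptides from the endosomal pathway to CD4+ T cells. The invariant chain, encoded by Cd74, fills the groove of new heterodimers and leads them to endosomes. There, the non-classical molecule H2-DM helps to exchange the remaining invariant chain fragment for other peptides, and H2-O restrains H2-DM. Ciita, the class II transactivator, is the master regulator that switches class II genes on. In the thymus, cortical and medullary epithelial cells and dendritic cells carry class II molecules, which are needed for the selection of CD4+ T cells.

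The data were 2 whole-genome mouse arrays with 2 dyes each, on which Cy3 marked the RNA of 2D culture and Cy5 the RNA of RTOC. One array held C57BL/6 fetal thymus cells of embryonic stage E14.5, whose lobes had been 8 days in organ culture, and the other held cells of stage E15.5 after 9 days. All lobes, those of the 2D cultures included, had received 1.35 mM deoxyguanosine, which depletes haematopoietic cells, before they were dispersed by enzyme. The cells were then grown for 72 h either on a 35-mm dish or as a drop on a membrane, where they pack together again, and the methods name no sorting of cell types before the arrays. The comparison therefore asks which genes differ between packed and flat growth after the same time. Each array gave 1 ratio of RTOC over 2D culture, and the 2 ratios were treated as replicates, so that an effect of stage, of the days in organ culture or of the array cannot be told apart. The dyes were not swapped on either array, so a dye preference of a probe and the culture cannot be told apart. One slide carried both arrays, which were scanned together.

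In 2D culture, 53.1% and 53.5% of all probes were well above background, and in RTOC 56.3% and 60.9% (E14.5 and E15.5). The test took in the 23681 probes that rose well above background in 2D culture, in RTOC or in both, on the E14.5 array and again on the E15.5 array. Of these, 3625 were higher in RTOC by limma at an adjusted p under 0.05, which is 15.3% of the tested probes, and the median log2 ratio of all tested probes was -0.01. With 2 arrays, the smallest two-sided p of an exact sign-flip test is 0.5, so every p-value rests on the spread that limma shares over all probes.

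Of the 9 genes, 7 lie together on mouse chromosome 17 between 34092379 and 34316674 (GRCm38.p6), a span of 224296 bp. H2-Oa lies at 34092379 to 34095234, H2-DMa at 34119693 to 34139101 and H2-DMb1 at 34153191 to 34160229. H2-Ob follows at 34238905 to 34245908, H2-Ab1 at 34263227 to 34269418, H2-Aa at 34282744 to 34287823 and H2-Eb1 at 34305867 to 34316674. Ciita lies apart from them on chromosome 16, at 10480014 to 10531064. Exons were not part of the annotation used, and which of them a probe matches is not given here.

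Class II promoters are known for an upstream X box, bound by the RFX complex and CREB, and a Y box, bound by NF-Y, on which Ciita assembles. RefSeq promoter windows of 300 bases (250 before to 50 after the annotated start, GRCm38.p6) were given for 6 of the 9 genes, in 7 windows, and none for H2-Ab1, Cd74 and Ciita. They were searched on both strands for the X-box core ACNGATG, the Y box ATTGG, and the pair on 1 strand with 10 to 35 bases between them. The motifs do not share letters within a pair. The bases from 150 to 31 before the start are shown for 5 genes because they hold these letters, or their neighbourhood, in the genes whose expression is given next, with matches in capitals and each sequence on its gene's own strand.
H2-Eb1, chr17:34305717-34305836, plus strand: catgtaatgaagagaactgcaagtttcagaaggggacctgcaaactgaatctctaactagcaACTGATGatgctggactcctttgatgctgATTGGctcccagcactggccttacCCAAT
H2-DMb1, chr17:34153041-34153160, plus strand: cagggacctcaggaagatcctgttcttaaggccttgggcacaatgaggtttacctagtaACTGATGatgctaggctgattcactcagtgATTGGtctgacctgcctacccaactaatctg
H2-Aa, chr17:34287854-34287973, minus strand: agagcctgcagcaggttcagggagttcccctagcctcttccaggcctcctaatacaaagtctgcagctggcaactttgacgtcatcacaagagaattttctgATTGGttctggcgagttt
H2-Oa, chr17:34092229-34092348, plus strand: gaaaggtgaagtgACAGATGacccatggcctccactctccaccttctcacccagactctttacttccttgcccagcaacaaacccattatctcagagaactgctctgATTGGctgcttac
H2-Ob, chr17:34238755-34238874, plus strand: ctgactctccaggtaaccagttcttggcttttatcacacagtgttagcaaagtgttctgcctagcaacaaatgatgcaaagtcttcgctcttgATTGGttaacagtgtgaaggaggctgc

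The pair was found in the windows of H2-Eb1, with 22 bases between the X-box core and the Y box, and of H2-DMb1, with 23 bases. It was held by 64 of 32841 promoter windows of the same length in the mouse table, which is 0.195%. The Y box alone was found in 6 of the 7 windows, against 37.4% of all windows, and the X-box core in 4, against 9.85%. Of these 4 cores, that of H2-Aa lay 232 bases before the start on the other strand, and that of H2-Oa 137 bases before it. In H2-Aa, H2-Oa and H2-Ob the Y box lay 48, 43 and 57 bases before the start, and no X-box core of this spelling lay within 35 bases of it. H2-DMa had 2 windows, of which 1 held a Y box, 198 bases before the start, and neither held an X-box core. A match is a description of the letters only, and a window without one says nothing about the binding of a factor.

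**Figure D1:**
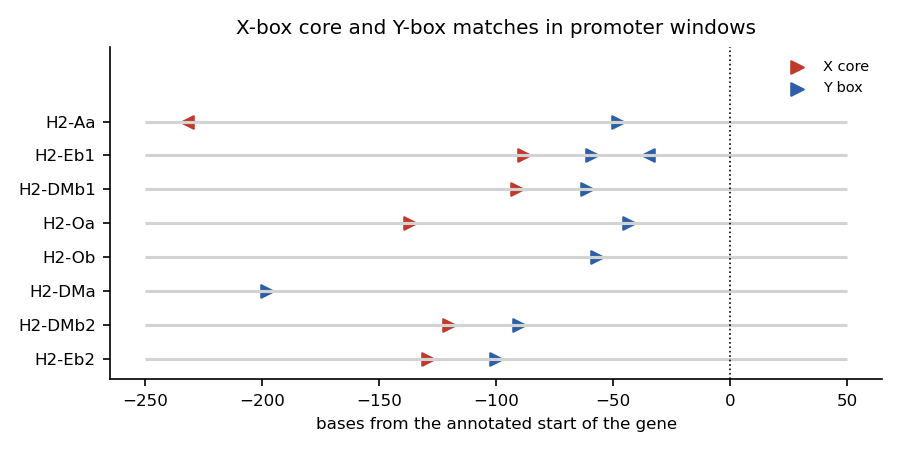
Matches to the X-box core (red) and the Y box (blue) by their distance in bases from the annotated start of each gene, with triangles pointing right for the gene's own strand and left for the other. H2-Eb1 and H2-DMb1, and the neighbouring genes H2-DMb2 and H2-Eb2, show a red and a blue triangle 29 or 30 bases apart between 129 and 59 bases before the start; the 2 windows of H2-DMa are drawn on 1 line.

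The genes of the classical α and β chains were several-fold higher in RTOC than in 2D culture on both arrays. H2-Aa encodes the α chain of the I-A molecule. On its brighter probe (A_52_P343306), the log2 signal at E14.5 was 9.11 in 2D culture against 13.51 in RTOC, and at E15.5 it was 9.25 against 13.49. Both RTOC samples were far above both 2D samples. The log2 ratios of 4.40 (E14.5) and 4.24 (E15.5) averaged 4.32 ± 0.11 (SD, n = 2 arrays), a 19.96-fold difference with an SE of 0.25 and an adjusted p of 0.00155 from limma. The other probe of H2-Aa (A_51_P119760) gave 4.28 and 4.06, with a mean of 4.17. These were the highest ratios among the 14 probes. Background correction by normexp, with an offset of 50 added to the signals, and loess made the folds of the brighter and the other probe 1.85 and 1.70 times smaller. Of all tested probes, 87 had a mean log2 ratio above that of the brighter probe.

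H2-Ab1, which encodes the β chain of I-A, was measured by 4 probes, 1 of them printed 10 times. On that probe (A_51_P215237), the log2 signal at E14.5 was 10.15 in 2D culture against 14.06 in RTOC, and at E15.5 it was 11.18 against 14.16. The log2 ratio of its 10 spots ran from 3.81 to 3.99 (SD 0.06) on the E14.5 array and from 2.92 to 3.02 (SD 0.03) on the E15.5 array. The spots of 1 array thus did not overlap those of the other, and the gap between the arrays was far larger than the spread between spots. The mean over the arrays was 3.45 ± 0.66 (SD, n = 2 arrays), with an adjusted p of 0.00244 from limma.

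The brightest probe of H2-Ab1 (A_52_P683598) had at E14.5 a log2 signal of 12.64 in 2D culture against 15.86 in RTOC, and at E15.5 of 13.41 against 15.97. Its mean log2 ratio, 2.89 ± 0.47 (SD, n = 2 arrays; adjusted p = 0.00281 from limma), was the lowest of the 4. The other pair of probes overlap by 31 bases and differ from each other at 2 of them, and they are shown because they read overlapping stretches of the gene. What the differing bases did to the ratio was not tested, since each probe also has bases outside the overlap. A_51_P215242 was designed on the RefSeq transcript and A_52_P570717 on a cDNA clone, and the differing bases are in capitals.
A_52_P570717: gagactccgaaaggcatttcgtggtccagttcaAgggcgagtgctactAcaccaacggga
A_51_P215242: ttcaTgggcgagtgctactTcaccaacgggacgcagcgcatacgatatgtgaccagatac
Counted from the 5′ end of A_52_P570717, whose base comes first, the differences are A34T and A49T. Their log2 ratios were 3.80 and 3.04 for A_52_P570717 and 4.00 and 3.09 for A_51_P215242 (E14.5 and E15.5), so on each array they lay closer to each other than either did to its own value on the other array, and both were higher in RTOC. All 4 probes of H2-Ab1 had the larger ratio on the E14.5 array.

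H2-Eb1 encodes the β chain of the I-E molecule. Its log2 signal at E14.5 was 9.33 in 2D culture against 13.03 in RTOC, and at E15.5 it was 10.33 against 13.68. The groups did not overlap, and the mean log2 ratio was 3.52 ± 0.25 (SD, n = 2 arrays), an 11.48-fold difference (SE 0.26, adjusted p = 0.00171 from limma). C57BL/6 mice are known to carry a defect in H2-Ea, the gene of the partner α chain, and so to lack surface I-E. The probe of H2-Ea was not well above background in any channel.

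Cd74, on chromosome 18 at 60803849 to 60812652, encodes the invariant chain, the chaperone of new class II heterodimers. Its log2 signal at E14.5 was 11.60 in 2D culture against 14.97 in RTOC, and at E15.5 it was 12.04 against 15.24. The log2 ratios of 3.37 and 3.20 gave a mean of 3.28 ± 0.12 (SD, n = 2 arrays), a 9.74-fold difference (SE 0.25, adjusted p = 0.00178 from limma). In 2D culture, Cd74 was thus already well above background, and it was higher in RTOC by nearly the same ratio on both arrays.

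**Figure D2:**
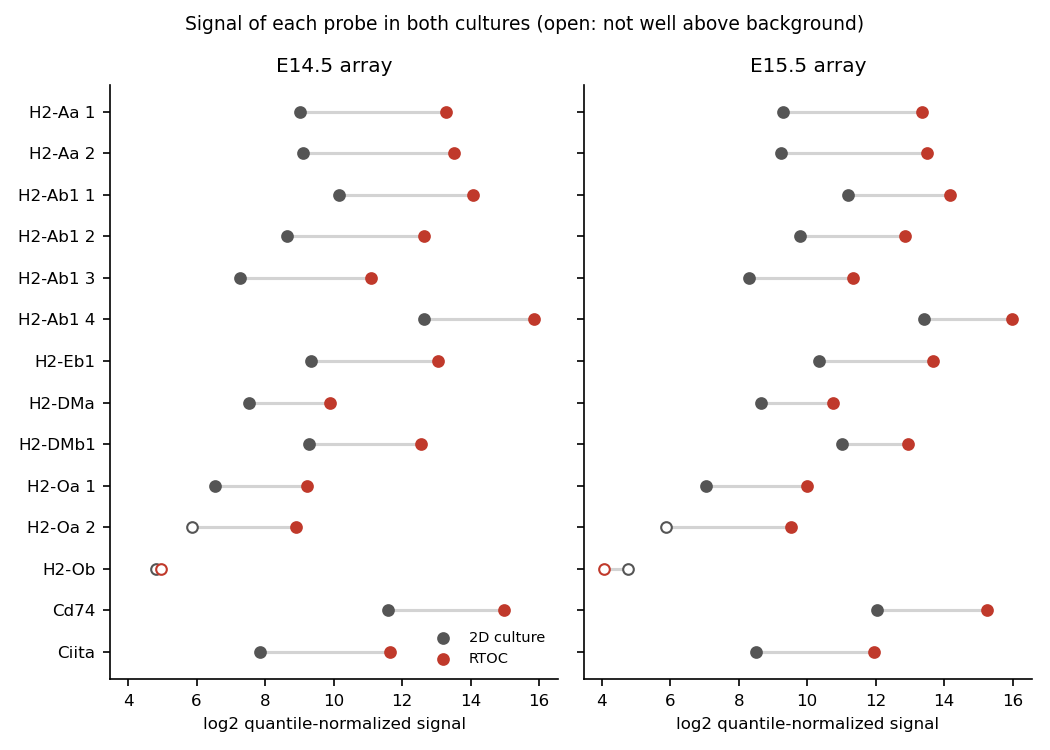
Log2 quantile-normalized signal of each of the 14 probes in 2D culture (grey) and RTOC (red), with the E14.5 array on the left and the E15.5 array on the right; open circles mark signals not well above background, and levels of different probes are not comparable. For 13 probes the red circle lies to the right of the grey one on both arrays, while both circles of H2-Ob are open and lie between 4.07 and 4.97.

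The genes of the peptide exchange molecule H2-DM were also higher in RTOC. H2-DMa, of the α chain, had at E14.5 a log2 signal of 7.52 in 2D culture against 9.89 in RTOC, and at E15.5 of 8.64 against 10.75. Its mean log2 ratio, 2.24 ± 0.18 (SD, n = 2 arrays), a 4.71-fold difference (SE 0.26, adjusted p = 0.00387 from limma), was the lowest of the genes tested. H2-DMb1, of a β chain, had at E14.5 a log2 signal of 9.29 in 2D culture against 12.56 in RTOC, and at E15.5 of 11.03 against 12.94. Every RTOC signal exceeded every 2D signal, but the ratios, 3.27 and 1.92, differed more between the arrays than those of any other tested probe here. The mean was 2.59 ± 0.96 (SD, n = 2 arrays), with an SE of 0.38 and an adjusted p of 0.00772 from limma, the weakest of the 13 tests. H2-DMb2, a close relative of H2-DMb1, was higher as well, by 2.06 and 1.26 (adjusted p = 0.0146 from limma) on 1 probe, while its other probe was not well above background in any channel. Cross-hybridisation between these related genes was not tested, so the value of each is uncertain.

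The 2 genes of H2-O, the inhibitor of H2-DM, differed in what could be measured. H2-Oa, of the α chain, had on its brighter probe (A_51_P449325) at E14.5 a log2 signal of 6.54 in 2D culture against 9.21 in RTOC, and at E15.5 of 7.05 against 9.99. The mean log2 ratio was 2.80 ± 0.19 (SD, n = 2 arrays), a 6.97-fold difference (SE 0.26, adjusted p = 0.00239 from limma). The second probe (A_51_P449329), with ratios of 3.03 and 3.66, was on neither array well above background in 2D culture, so its level gives only a bound: it was at least 2.17-fold higher in RTOC (adjusted p = 0.00219 from limma). Here and below, "at least" sets the mean RTOC level against a floor in 2D culture. The floor on each array is the lowest level of any probe well above background there, or the probe's own level where higher. These levels are taken after normexp with its offset of 50, loess and Aquantile normalization. A dye bias would carry over to such a bound. Every gene or probe given by a bound passed the filter through RTOC alone, and the adjusted p beside it tests the measured ratio, not the bound. H2-Ob, of the β chain, was not well above background in any of the 4 channels and was not tested. Its log2 signals lay between 4.07 and 4.97, and its ratios of 0.15 and -0.70 carry no direction.

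Ciita, the class II transactivator, had at E14.5 a log2 signal of 7.86 in 2D culture against 11.63 in RTOC, and at E15.5 of 8.49 against 11.96. Its log2 ratios of 3.77 and 3.47 averaged 3.62 ± 0.21 (SD, n = 2 arrays), a 12.3-fold difference (SE 0.26, adjusted p = 0.00166 from limma). Among the 8 genes tested by their brightest probes, its ratio came second to that of H2-Aa. With normexp and loess it was 2.46, a fold 2.23 times smaller, and lay below those of Cd74, H2-Eb1 and H2-Ab1. The annotated promoters from which Ciita is read were not distinguished by its single probe.

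**Figure D3:**
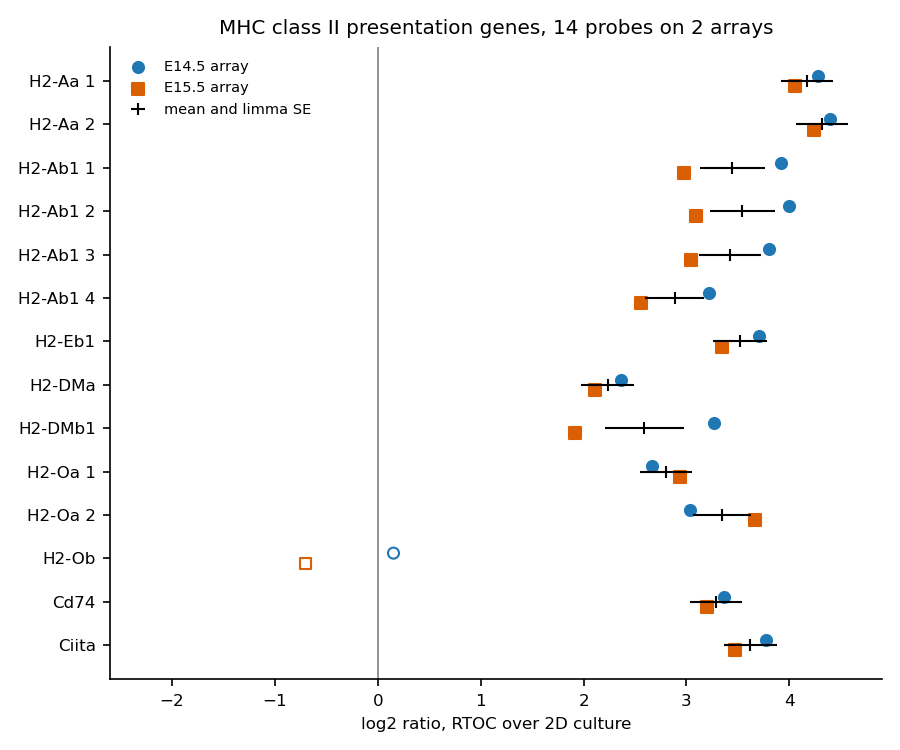
Log2 ratio of RTOC over 2D culture for each of the 14 probes, with circles for the E14.5 array, squares for the E15.5 array, and bars for the mean and limma's SE; open symbols mark the probe that was not tested. The 13 tested probes lie between 1.92 and 4.40, and the arrays lie farthest apart for H2-DMb1 and H2-Ab1.

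Thus 13 of the 14 probes, for 8 of the 9 genes, could be tested, and all 13 were higher in RTOC by limma at an adjusted p under 0.05, between 0.00155 and 0.00772, where 15.3% of all tested probes were. All 13 were also at least 2-fold higher on both arrays, as were 10.8% of all tested probes. Of the 13, 12 were well above background in all 4 channels, while the second probe of H2-Oa passed the filter through RTOC alone. The median log2 ratio of the 13 was 3.42, against -0.01 for all tested probes. In bulk samples such as these, fewer cells of a type and less RNA per cell cannot be told apart. Without a filter on dim probes limma called 0 of the 41168 probes, of which 10660 had an unadjusted p under 0.05, the 13 class II probes among them, and the lowest adjusted p was 0.117. With normexp and loess the ratios of the 2 probes of H2-Oa became 1.23 and 1.13, folds 2.97 and 4.65 times smaller, and that of H2-DMa 1.35, a fold 1.85 times smaller. The folds of A_52_P570717 and A_51_P215242 for H2-Ab1 and of H2-Eb1 became 2.37, 1.57 and 1.56 times smaller, and all 13 probes were still called. An offset of 50, as used with normexp here, by itself shrinks the ratios of dim probes. The processed 2D signals of H2-Oa ran from 55 to 129, and the part of the offset was not tested.

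**Figure D4:**
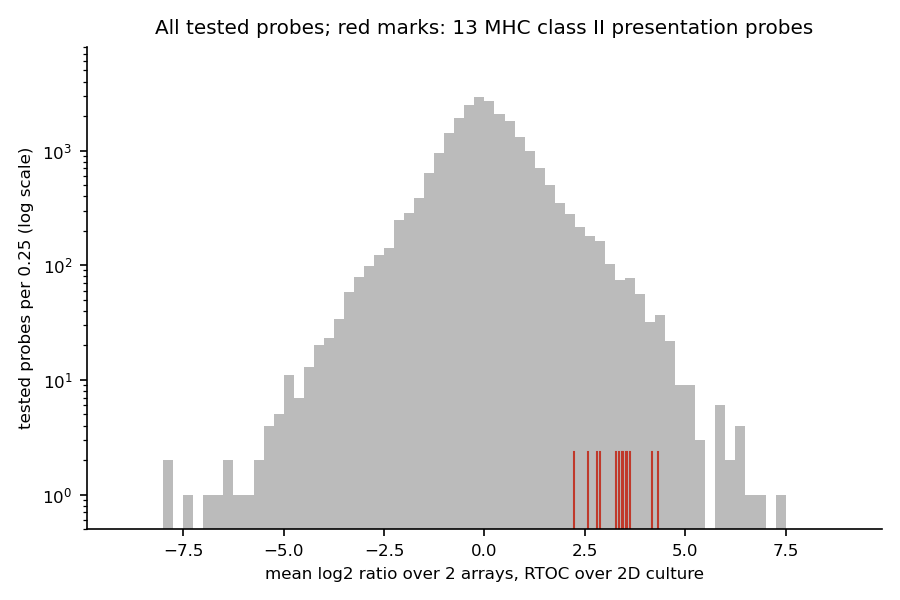
Histogram of the mean log2 ratio of all 23681 tested probes in steps of 0.25, with the number of probes on a log scale and red marks at the 13 tested probes of the class II genes. The marks lie between 2.24 and 4.32, on the right side of a distribution centred near 0.

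By their brightest probes, the genes stood in the order H2-Aa (4.32), Ciita (3.62), H2-Eb1 (3.52), Cd74 (3.28), H2-Ab1 (2.89), H2-Oa (2.80), H2-DMb1 (2.59) and H2-DMa (2.24) in mean log2 ratio. The gap from H2-Aa to Ciita was 0.70, with a combined SE of 0.36, and that from Cd74 to H2-Ab1 was 0.40, with a combined SE of 0.38. The other neighbours differed by less than their combined SE. The place of H2-Ab1 depends on the probe, since its other 3 probes gave 3.42 to 3.54. The order also depends on the choice of background correction with its offset. Under normexp and loess it ran from H2-Aa (3.43) over Cd74 (3.05), H2-Eb1 (2.88), H2-Ab1 (2.85), Ciita (2.46), H2-DMb1 (2.16) and H2-DMa (1.35) to H2-Oa (1.23). These gaps were not tested, since probes can differ in how far they compress a ratio.

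The arrays differed in the level of the class II genes in 2D culture more than in RTOC. All 12 probes well above background in every channel had a lower log2 signal in 2D culture on the E14.5 array than on the E15.5 array, by a median of 0.88 and by up to 1.74 for H2-DMb1. In RTOC, 11 of the 12 were lower on the E14.5 array, by a median of 0.27. Among all 20157 probes so measured, 50.1% were lower on the E14.5 array in 2D culture and 52.8% in RTOC. The ratio was larger on the E14.5 array for 11 of the 13 tested probes, the exceptions being both probes of H2-Oa. With 1 array for each stage, this difference between the arrays was not tested.

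The 5 other genes whose ratios lay nearest to the median of the 8 class II genes (3.32 and 3.07 on the arrays, by Euclidean distance over the 2 ratios) were Selenbp2, Dpyd, Ufsp1, Notch4 and Ccl8. Their distances ran from 0.07 to 0.17, among 12065 genes well above background in every channel. Selenbp2, the nearest, had a mean log2 ratio of 3.17. A likeness over 2 arrays is a description only.

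Genes that process antigen for class II molecules, or move and degrade them, formed a list of 14, of which 12 were tested. In RTOC 7 were higher and 0 lower, where 15.3% of all tested probes were higher and 13.6% lower. The median log2 ratio of the 12 was 1.12, against -0.01 for all tested probes. Prss16, the thymus-specific serine protease of cortical epithelium, had ratios of 5.35 and 5.24 (mean 5.29 ± 0.08, SD, n = 2 arrays; adjusted p = 0.00155 from limma). Cd83, which protects class II molecules from ubiquitin-dependent degradation in thymic epithelium, had ratios of 4.96 and 4.98 (adjusted p = 0.00155 from limma). Ctsl, the cathepsin that cleaves the invariant chain in cortical epithelium, had ratios of 3.47 and 2.84 (adjusted p = 0.00232 from limma). Ctss, the cathepsin that does so in dendritic cells and other antigen-presenting cells, had ratios of 0.19 and 1.75 and did not pass the test (adjusted p = 0.134).

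Of 18 regulators of class II transcription, 17 were tested, and 5 were higher and 0 lower in RTOC, against the same 15.3% and 13.6% of all tested probes, with a median log2 ratio of 0.39. Among them were Irf1 (mean 2.02), Rfxank (1.28), Creb1 (1.12) and Rfxap (0.97). The other tested probes of Creb1 went the other way, 1 of them called lower (mean -1.11, adjusted p = 0.0274 from limma) and 1 not called (-0.58), so its direction is uncertain. The other probe of Irf1 did not pass the test (mean 0.84). With the median over all tested probes of a gene, 4 of the 17 were called. Irf1 acts in the interferon gamma pathway that induces Ciita, and Rfxank and Rfxap are subunits of the X-box-binding RFX complex. Rfx5, the DNA-binding subunit of that complex, had ratios of 0.88 and -0.01 and did not pass the test (adjusted p = 0.334), and in 2D culture it was well above background on 1 of the 2 arrays. Ciita itself, at 3.62, had a higher ratio than any of the 17. Ifng, the gene of interferon gamma, was not well above background in any channel. With normexp and median centring, 1 of the 17 was called, and with no replicate block 3.

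Of 11 genes known to respond to interferon gamma, 10 were tested. Against 15.3% higher and 13.6% lower among all tested probes, 5 of them were higher and 0 lower in RTOC. The count of lower genes became 1 with normexp and loess, the deposited ratios, all 4 channels required above background, or a trended, robust eBayes. Under the other alternatives it stayed 0. The median log2 ratio was 1.22, or 0.91 with Cxcl9 at its bound. Psmb9, a subunit of the immunoproteasome, had ratios of 4.11 and 3.73. The chemokine Cxcl10 had ratios of 3.67 and 1.47, and the chemokine Cxcl9, not well above background in 2D culture, was at least 1.35-fold higher in RTOC. The other two were Iigp1 (mean 2.54) and Gbp3 (1.42). Creb1, Iigp1, Gbp3 and, among the markers that follow, Lyz2, Krt5, Pecam1, Tek and Pdgfrb were named after their values were seen.

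**Figure D5:**
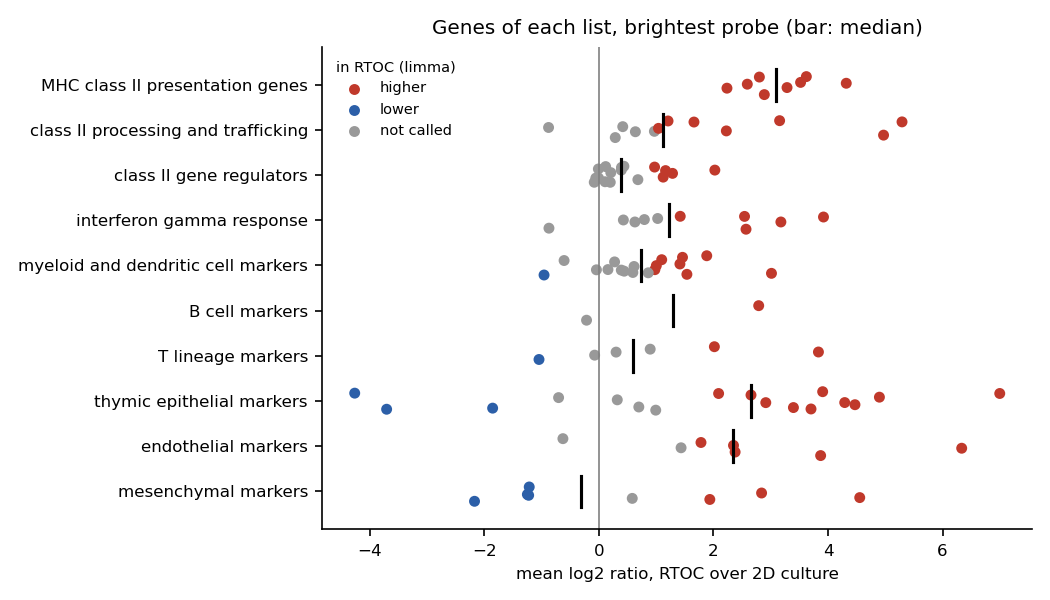
Mean log2 ratio of RTOC over 2D culture for each tested gene of 10 lists, by its brightest probe, in red where higher in RTOC by limma, blue where lower and grey where not called; bars mark each list's median and the vertical scatter within a row carries no value. The 8 class II genes, in the top row, are all red, with a median of 3.09.

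Markers of the cell types that could carry class II molecules differed between the cultures too, and their part in the result was not tested. Of 23 markers of myeloid and dendritic cells, 18 were tested, with a median log2 ratio of 0.74. In RTOC 8 were higher and 1 lower, against 15.3% and 13.6% of all tested probes. The summed signal of the 23 was 86020 and 73948 in the 2D samples (E14.5 and E15.5, as in the sums that follow). In the RTOC samples it was 202494 and 253033, and 18 or 19 of the markers were well above background in each channel. Every such sum adds signals of different probes and follows the brightest. Here Lyz2 was the brightest, with log2 signals of 15.83 and 15.56 in 2D culture and 16.93 and 17.37 in RTOC. The other probe of Lyz2 did not pass the test (mean 0.87, adjusted p = 0.0548 from limma). Adgre1, a defining marker of macrophages, had ratios of 2.80 and 3.22, Ptprc, the pan-leukocyte marker CD45, of 1.97 and 1.80, and Tyrobp, a signalling adaptor of myeloid cells, a mean of 1.54. Csf1r, the receptor of macrophage growth factor, had ratios of 0.91 and 1.28 (adjusted p = 0.0317 from limma) on its brightest probe, and -0.04 and 0.46 (adjusted p = 0.591) on another. Itgax, the marker CD11c of dendritic cells, had ratios of 0.32 and -0.41, and Itgam, the marker CD11b, of -0.30 and -0.92, and neither passed the test (adjusted p = 0.922 and 0.158 from limma). Zbtb46, a transcription factor of classical dendritic cells, was the marker that was lower (mean -0.96, adjusted p = 0.0412 from limma). Its other tested probe had ratios of -1.01 and 0.81 (adjusted p = 0.887 from limma), and with the median over probes, with normexp, with processed signals centred on the median and with a trended, robust eBayes 0 of the 18 were called lower. With no replicate block 5 of the 18 were called.

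All 17 markers of thymic epithelium were tested, with a median log2 ratio of 2.66. In RTOC 10 were higher and 3 lower, against 15.3% and 13.6% of all tested probes. The summed signal of the 17 was 299302 and 627201 in the 2D samples and 1060161 and 1057800 in the RTOC samples. Ccl25, the chemokine that draws T-cell progenitors, had ratios of 7.34 and 6.66 on its brightest probe and means of 4.34 and, not called, 0.78 on the others, Enpep of 4.96 and 4.84 and Ly75, a marker of cortical epithelium, of 4.50 and 4.44. Foxn1, the master transcription factor of thymic epithelium, had ratios of 2.68 and 2.63. Aire, the medullary regulator of tissue antigens, was in 2D culture on neither array well above background, and its level in RTOC was at least 1.46-fold higher (adjusted p = 0.00550 from limma). Epcam, a general epithelial marker, had ratios of -0.54 and -0.87 and did not pass the test (adjusted p = 0.0953 from limma). The lower genes were the tight junction gene Cldn4 (mean -4.27), Cd80 (-3.71) and the keratin Krt14 (-1.86). Another keratin of the list, Krt5, was higher, with ratios of 2.66 and 3.17 (adjusted p = 0.00251 from limma). Cd80 was well above background in RTOC on 1 of the 2 arrays.

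Markers of lymphocytes were tested in part. Of 8 B cell markers, 2 were tested, and 1 was higher and 0 lower in RTOC, against 15.3% and 13.6% of all tested probes. Cd79b, a chain of the B cell receptor complex, was at least 1.54-fold higher (adjusted p = 0.00243 from limma). The summed signal over the 8 was 308 and 382 in the 2D samples and 538 and 703 in the RTOC samples, and between 1 and 3 of the 8 were well above background in a channel. Of 12 T lineage markers, 6 were tested, and 2 were higher and 1 lower, against the same 15.3% and 13.6% of all tested probes. The summed signal over the 12 was 1268 and 1961 in the 2D samples and 3152 and 1571 in the RTOC samples. In 2D culture 4 and 3 of the 12 were well above background, and in RTOC 7 on each array. Cd3g, well above background in 2D culture on 1 of the 2 arrays, had ratios of 4.10 and 3.56, Cd3d was at least 1.31-fold higher in RTOC, Cd8b1 was lower (mean -1.05), and Cd3e, with ratios of -0.03 and -0.12, did not pass the test. With normexp and loess, none of the tested B or T cell markers was called.

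Endothelial cells can also carry class II molecules. Of their 7 markers, 5 were higher in RTOC and 0 lower, against 15.3% and 13.6% of all tested probes. On each array 3 of the 7 in 2D culture and all 7 in RTOC were well above background. Of the 5 called, 4 passed the filter through RTOC alone, and a gene so admitted could hardly be called lower. With all 4 channels required above background, 3 were tested and 1 was called higher. The summed signal of the 7 was 2250 and 974 in the 2D samples and 6766 and 10405 in the RTOC samples. Cdh5, the cadherin of endothelial junctions, was at least 5.02-fold higher and Tie1 at least 1.12-fold, Emcn had ratios of 3.17 and 4.58, and Pecam1 and Tek were at least 1.42-fold and 1.11-fold higher. With normexp and loess 2 of the 7 were called. Of 8 mesenchymal markers, 3 were higher and 4 lower, against the same 15.3% and 13.6% of all tested probes. The summed signal of the 8 was 435134 and 333253 in the 2D samples and 273380 and 292361 in the RTOC samples. Lum, Pdgfra and Dcn were higher (means 4.55, 2.84 and 1.94), and Col1a1, Thy1, Col1a2 and Pdgfrb were lower (-2.17, -1.25, -1.23 and -1.22). The other tested probe of Thy1 did not pass the test (mean -0.86).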

How the data were processed

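Per the file headers and the methods, the authors hybridized amplified RNA to Agilent whole-genome mouse arrays and ran Feature Extraction, given as version 9.1.3.1 in the headers and 11.5.1.1 in the submitters' processing notes. Each deposited scanner file gives an intensity per spot and dye, as mean and background signals and as a processed signal after background subtraction and dye normalization. The deposited log10 ratio of Cy5 over Cy3, and the deposited series values, also log10 ratios, were used only as alternatives. The labels name TRIzol for the extraction and the methods an RNeasy kit, and the scanner in the headers differs from that in the methods.

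From the processed signals, control spots were removed, as were the spots that Feature Extraction called non-uniform outliers, 5 at E14.5 and 1 at E15.5. Quantile normalization over the 4 channels followed, as the methods name it, and log2 ratios were averaged over the spots of a probe. They were tested against 0 with limma 3.58.1 (R 4.3.3; intercept, eBayes, two-sided, 1 residual degree of freedom) with Benjamini-Hochberg adjustment over all 23681 tested probes and a threshold of 0.05. The steps were tested on simulated data. No spot of the 9 genes was saturated or an outlier. Of 41174 probes, 22951 were named by RefSeq accession, 6659 by symbol and 3109 by an older symbol (GRCm38.p6), and 8455 kept the file's name. A gene with several probes was represented in the lists by its brightest tested probe. Named were every probe of the 9 genes, up to 3 highest and 3 lowest called genes of each list, and 20 set genes. Single values of some list genes are not reported here, though the counts include them. The 9 genes and the lists were chosen with earlier results of these data known. The number of arrays limits the precision. Since both cultures of a stage share an array, the pairing of samples comes from the hybridization, and the fit on ratios keeps the array as a block.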

Additional observations from a re-analysis of the deposited data

Results flagged for a closer look

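Of the tested genes named in the text, Rfx5 and Itgax had ratios of opposite sign on the 2 arrays by their brightest probes. For Itgax the log2 ratio of RTOC over 2D culture was 0.32 at E14.5 and -0.41 at E15.5, a difference of 0.73. For Rfx5 it was 0.88 and -0.01, a difference of 0.88, with the E15.5 ratio next to 0 and the 2D signal at E14.5 not well above background. Ratios of opposite sign were seen in 13 of the 97 tested list genes outside the class II genes. With 1 array for each stage, these differences were not tested.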

How the results depend on the processing

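All 13 tested class II probes stayed higher in RTOC under every alternative that gave them a value, and with either array left out. Quantile normalization centres the ratios: with median centring in its place, the median of all tested probes was 0.15 (processed signals) and 0.12 (normexp), and that of the 13 probes 3.59 and 3.04. The 6853 probes called became 3738 with normexp and loess, 2947 with normexp and median centring, 4040 with no replicate block, and 0 with no filter on dim probes (10660 at an unadjusted p under 0.05). The share of calls that were higher, 52.9% at first, became 76.2% with normexp and median centring and 65.1% with processed signals centred on the median. The methods' t-test, run on the ratios of the 2 arrays, called 3540 probes unadjusted and 4 after Benjamini-Hochberg, and of the class II probes 7 and 0. The fit with no replicate block called all 13 class II probes, and when all 4 channels had to be well above background 12 were tested and called. With no filter on dim probes, and by the methods' t-test after adjustment, each list had 0 calls. By the methods' t-test unadjusted, the processing and trafficking genes had 2 calls, the regulators 0, the interferon gamma genes 3, and the T lineage, endothelial and mesenchymal markers 1, 2 and 1. With no replicate block, the regulators had 3, the myeloid and dendritic markers 5, the T lineage markers 0 and the mesenchymal markers 3. With normexp and either normalization, the B cell and T lineage markers had 0 and the endothelial markers 2, and with median centring the regulators had 1. With all 4 channels required above background, the B cell markers had 0, the T lineage markers 1 and the endothelial markers 1. By the 2-fold rule on both arrays, the regulators had 1, the myeloid and dendritic markers 5 and the mesenchymal markers 4. The causes were not tested.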
